A study of Mus musculus with 6 samples.

Results

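The proteasome is the protease of the cytosol and nucleus that degrades proteins tagged with ubiquitin. Its core particle is a barrel of alpha and beta subunits, and 3 of the beta subunits carry the proteolytic sites inside it. The regulatory particle caps the barrel, with a ring of ATPases that unfolds substrates, a group of base subunits that receive ubiquitin chains and a lid that holds the deubiquitinase Psmd14. The genes of the subunits are known to be expressed together, and in mammals the transcription factor Nfe2l1 is known to raise them when proteasome activity falls short.

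Proteasome genes were taken from the table by symbol, as Psma, Psmb, Psmc or Psmd followed by a number, without the immunoproteasome genes Psmb8, Psmb9 and Psmb10, and with a mean of at least 50 normalised counts over the 6 libraries. Of 36 such symbols among 27179 rows, 34 were members, namely 7 alpha ring genes, 7 beta ring genes, 6 ATPases and 14 Psmd genes. The core particle thus had 14 members and the regulatory particle 20. Psma8, an alpha subunit known from testis, had 0 reads in all 6 libraries. Psmb11, known from the thymus, had 4, 4 and 13 reads in the control libraries and 14, 0 and 2 in the knockout libraries. The member with the lowest control mean, Psma5, stood at 1784 normalised counts, far above the limit of 50. Psmd5, Psmd9 and Psmd10 carry the symbols of regulatory subunits but encode chaperones that help to assemble the base.

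The cells were mouse embryonic fibroblasts that carried Cas9, the adenoviral oncogene E1A and activated Hras (HrasG12V) in the control and the knockout group alike. Guide RNAs were brought in by lentivirus, and RNA was taken 10 days into culture after selection. The 3 control libraries had negative control guides labelled EV, SPA and ACOCA, and the 3 knockout libraries had the Zmat3 guides 52.6, 51.5 and 54.8. Zmat3 encodes a zinc finger protein that binds RNA, and the study compared the transcripts of cells with and without guides against it. No guide was used in more than 1 library, and the labels do not say whether the cells came from separate cultures, so p-values measure the spread between these libraries.

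The libraries held 53253055 to 90256118 reads assigned to genes. The Zmat3 transcript (chromosome 3, 32334792 to 32366014, minus strand, GRCm38) stood at 17169, 15869 and 17434 normalised counts in control and at 11421, 4912 and 4960 in knockout libraries 1, 2 and 3. Knockout library 1 thus kept 67.9% of the control mean, against 29.2% and 29.5% in the other knockout libraries. Control library 3 stood apart from the rest, with a mean correlation of 0.941 with the other libraries, where the other 5 had 0.969 to 0.975. Of 12 fibroblast markers, 9 passed the filter on low values. Lum was at 0 in every library, and Col1a2 and Thy1 did not exceed 14.2 and 5.42. Vim lay between 150396 and 195037 and was highest in control library 3, as were Fbln2 at 1097 and S100a4 at 372.9. Others were lowest there, such as Col3a1 at 2424, 2407 and 198.2 in control and 2987, 3512 and 3546 in knockout, and Pdgfra at 2299, 1525 and 424.8 against 2384, 2351 and 1862. Of 6 epithelial markers, 3 passed the filter. Epcam lay between 18992 and 25182 in 5 libraries and at 3574 in control library 3. Krt18 stood at 4463, 106.9 and 8675 in control and at 216.9, 91.3 and 452.4 in knockout. Cdh1 lay between 36.6 and 213.3. Krt5 was at 0 in every library, and Krt8 and Krt14 did not exceed 30.7 and 4.72. Of 7 leukocyte markers, Cd68 passed the filter, at 5352, 6049 and 769.3 in control and 9236, 8035 and 7160 in knockout, and Ptprc did not exceed 8.26. The part of these markers in the proteasome values was not tested, and in bulk RNA fewer cells of a type and less RNA per cell cannot be told apart.

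The proteasome members were abundant transcripts. In total they took 0.559%, 0.624% and 0.806% of all reads in control libraries 1, 2 and 3, and 0.498%, 0.598% and 0.594% in the knockout libraries. The highest share was thus that of control library 3 and the lowest that of knockout library 1, while knockout libraries 2 and 3 lay between control libraries 1 and 2. Per kilobase of the longest annotated coding transcript, control levels ran from 1159 normalised counts for the chaperone Psmd5 to 19520 for the catalytic subunit Psmb6. The medians per kilobase were 9818 for the core and 8326 for the regulatory particle, or 9337 for the 17 regulatory members other than the chaperones. The 3 chaperones lay at 1159, 1508 and 1654 per kilobase, below all regulatory subunits, of which Psmd11 was the lowest at 3165.

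**Figure D1:**
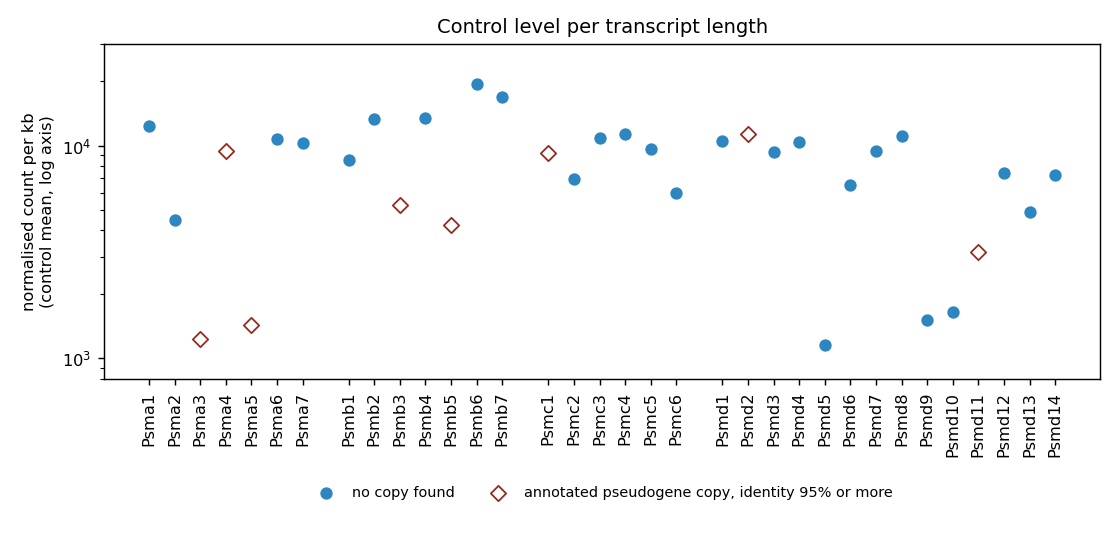
Mean control level of each of the 34 members in normalised counts per kilobase of its longest annotated coding transcript, on a log axis, with 3 libraries behind each mean. Open diamonds are members with an annotated pseudogene copy of 95% identity or more. The core members of lowest level, Psma3 and Psma5, are among them.

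Subunits of a shared ring did not have like values. In the alpha ring, Psma1 stood at 12410 per kilobase and Psma3 at 1229, and in the beta ring Psmb6 stood at 19520 and Psmb5 at 4247. Levels per kilobase depend on the transcript taken, whose length was 1201 bases for Psma1, 2846 for Psma3 and 4397 for Psmd5. Which transcript the cells expressed was not tested. Annotated pseudogene copies with at least 95% identity over at least 200 bases were found for 8 members, Psma3, Psma4, Psma5, Psmb3, Psmb5, Psmc1, Psmd2 and Psmd11. Their median per kilobase was 4753, against 9508 for the 26 members without such a copy. Reads shared with a copy may have been dropped or split by the authors' counting, so the levels of these 8 are uncertain, and the part of the copies in their low levels was not tested. Some values may also include reads of genes on the opposite strand, since the strand setting of the counting is not given in the sources used here. Transcripts of Psmb7, Psmc3 and Psmd13 overlap Nek6, Slc39a13 and Sirt3 by 405, 97 and 152 bases. Those of Psma4, Psma5 and Psmd3 overlap opposite-strand genes by 114, 60 and 17 bases. On the same strand, Psmd1 overlaps Gm21972 by 301 bases and Psmb5 overlaps Mir686 by 109.

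Nfe2l1 and its relative Nfe2l2 act through the antioxidant response element, whose core is TGACNNNGC. The core was searched on both strands in windows from 250 bases before to 50 bases after the annotated start. Of 28 members with a window in the RefSeq table, 5 held it (17.9%), namely Psmb5, Psmb6, Psmc6, Psmd9 and Psmd12, against 14% of 27025 genes. A match is a run of letters and not a bound site. The 4 matching members of highest mean are printed as examples, and Psmd8, the single member to lie higher in knockout with no overlap, is printed for contrast; it holds no match. Each sequence is from RefSeq on GRCm38.p6 and shows a match in capitals, in either orientation (TGACNNNGC or GCNNNGTCA). All but that of Psmd9 end before the first annotated exon. The Psmd9 sequence ends at a RefSeq start inside the annotated gene (123169413 to 123250131) and was not cut.
Psmb6, chr11:70525107-70525356, plus strand: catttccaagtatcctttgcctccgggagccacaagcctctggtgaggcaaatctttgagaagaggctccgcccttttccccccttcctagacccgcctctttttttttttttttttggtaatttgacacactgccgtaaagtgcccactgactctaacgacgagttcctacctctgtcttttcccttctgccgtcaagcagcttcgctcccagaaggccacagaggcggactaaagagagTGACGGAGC
Psmc6, chr14:45329574-45329787, plus strand: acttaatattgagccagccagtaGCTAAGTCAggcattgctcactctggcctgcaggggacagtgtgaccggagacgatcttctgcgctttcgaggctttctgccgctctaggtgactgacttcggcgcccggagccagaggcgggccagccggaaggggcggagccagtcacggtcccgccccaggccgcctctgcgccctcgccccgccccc
Psmd9, chr5:123227940-123228189, plus strand: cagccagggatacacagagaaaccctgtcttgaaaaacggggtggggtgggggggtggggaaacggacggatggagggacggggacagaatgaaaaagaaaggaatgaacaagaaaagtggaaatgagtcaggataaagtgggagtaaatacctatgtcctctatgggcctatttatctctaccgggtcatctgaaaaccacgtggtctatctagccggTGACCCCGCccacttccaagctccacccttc
Psmd12, chr11:107479278-107479483, plus strand: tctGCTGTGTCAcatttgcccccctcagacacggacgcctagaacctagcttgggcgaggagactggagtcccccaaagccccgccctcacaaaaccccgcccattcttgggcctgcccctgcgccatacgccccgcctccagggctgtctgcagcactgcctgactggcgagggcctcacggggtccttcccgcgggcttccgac
Psmd8, chr7:29180702-29180923, minus strand: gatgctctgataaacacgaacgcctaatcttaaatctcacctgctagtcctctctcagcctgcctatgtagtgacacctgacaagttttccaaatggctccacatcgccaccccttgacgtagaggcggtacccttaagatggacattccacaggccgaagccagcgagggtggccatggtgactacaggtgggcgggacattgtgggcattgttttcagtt
The match lay 9 bases before the RefSeq start in Psmb6 and 31 before it in Psmd9, and it began 227 and 247 bases before it in Psmc6 and Psmd12. The log2 fold changes of the 5 members with a match ran from -0.50 for Psmb5 to -0.23 for Psmc6, within the range of members without one.

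Most proteasome transcripts lay lower in the Zmat3 knockout libraries, but none passed a test against the spread between libraries. Of the 34 members, 31 had a negative log2 fold change of knockout against control, where 48.4% of the 14777 genes tested did. The median over the members was -0.34 on the log2(value + 1) scale, against 0.01 over all genes tested. Limma called no member at an adjusted p under 0.05, with adjusted p-values from 0.371 to 0.948. It called 0% of all genes, so this count says nothing particular about the proteasome. At an unadjusted p under 0.05, limma had 2 members, Psmb5 and Psmc4, which is 2 of 34 where the share of all genes was 13.2%. EdgeR's quasi-likelihood test also called 0 of 14777 genes (0%), with 5 members at an unadjusted p under 0.05 where 13.4% of all genes had one. DESeq2 called 129 of 14475 genes (0.891%) and no member, with a lowest adjusted p of 0.24 among members. It had 5 members at an unadjusted p under 0.05, where 11.2% of all genes had one. Zmat3 itself had a log2 fold change of -1.36 with limma. Its adjusted p was 0.371 in limma, 0.365 in edgeR and 0.0444 in DESeq2. Limma and edgeR thus did not call the targeted gene either, although its groups did not overlap.

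The lower median rested in large part on control library 3. Control library 3 was the highest of the 6 libraries for 32 of 34 members, all but Psmb1 and Psmd8, where it was the highest for 36.8% of all genes. Knockout library 1 was the lowest for 26 members, where it was the lowest for 24.3% of all genes. Averaged over the members, the log2 level relative to the control mean was -0.30, -0.09 and 0.38 in control libraries 1, 2 and 3 and -0.52, -0.21 and -0.20 in the knockout libraries. Knockout libraries 2 and 3 thus lay between control libraries 1 and 2. Without control library 3 the log2 fold change of 28 members was smaller in size by over 1.5 times, the exceptions being Psma5, Psmb1, Psmb2, Psmb5, Psmc4 and Psmd8. The median was then -0.15 and 26 of 34 members were negative, where 49.1% of all genes were. Without knockout library 1, which kept most Zmat3 transcript, it was -0.23 and 31 members were negative.

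**Figure D2:**
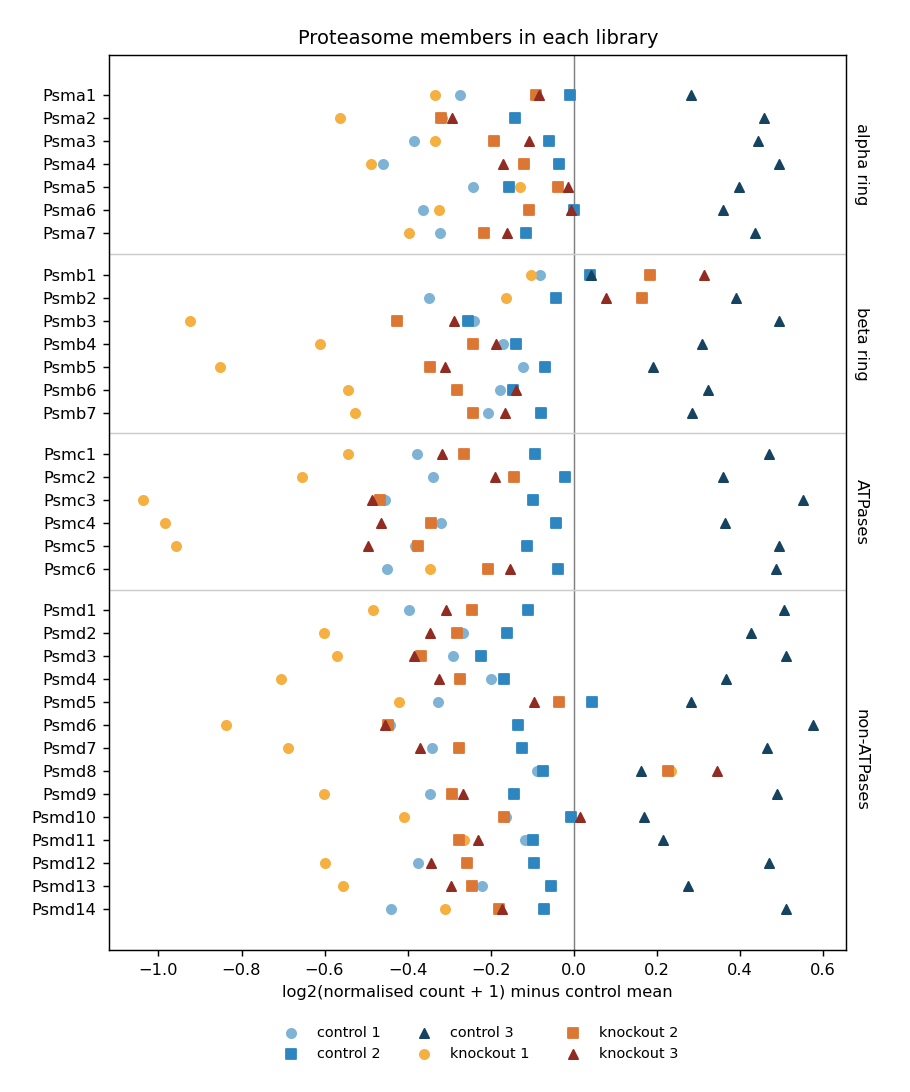
Level of each of the 34 members in each of the 6 libraries, as log2(normalised count + 1) minus the mean of the 3 control libraries, with members grouped by class. Control library 3 is the rightmost point for 32 members and knockout library 1 the leftmost for 26.

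The knockout and control values did not overlap for 12 members. The knockout values were all lower for 11 members (background 14.4% of genes), namely Psmb3, Psmb4, Psmb5, Psmc3, Psmc4, Psmd2, Psmd3, Psmd4, Psmd6, Psmd11 and Psmd13, and all higher for Psmd8 (background 13.2%). No alpha ring gene was among them. Without control library 3, again 11 were lower (background 17.6%) and 2 were higher, Psma5 and Psmd8 (background 17.4%). Without control library 1 the count of members with no overlap was 29 in place of 12, of which 28 were lower (26.5% of all genes) and 1 was higher (26.2%), so control library 1 decided the overlap for many members.

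The ATPases, encoded by Psmc genes, had the lowest fold changes of the 4 classes, with a median of -0.49 and 6 of 6 negative. Psmc3 stood at 13816, 17710 and 27771 normalised counts in control and at 9224, 13717 and 13521 in knockout. Every knockout value lay below every control value, but control library 1 and knockout library 2 were nearly level. The log2 fold change was -0.66 (SE 0.28; limma adjusted p = 0.371), and it was -0.39 without control library 3.

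Psmc4 stood at 12837, 15553 and 20628 in control and at 8101, 12638 and 11619 in knockout, with no overlap. Its log2 fold change was -0.60 (SE 0.23; limma adjusted p = 0.371), and -0.42 without control library 3. Psmc5 stood at 9391, 11315 and 17238 in control and at 6300, 9429 and 8677 in knockout, so that knockout library 2 lay just above control library 1. Its log2 fold change was -0.61 (SE 0.26; limma adjusted p = 0.371). Knockout library 1 gave the lowest value of all 3 genes.

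The other ATPases had smaller fold changes. Psmc1 had a log2 fold change of -0.37 and Psmc2 of -0.33, with overlapping groups. Psmc6, the ATPase closest to 0, stood at 9424, 12550 and 18040 in control and at 10131, 11160 and 11584 in knockout, and all knockout values lay within the control range. Its log2 fold change was -0.23 (SE 0.23; limma adjusted p = 0.576) and 0.01 without control library 3.

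The 7 alpha ring genes, which form the outer rings and the gate of the barrel, had a median of -0.21 and were all negative. Their groups overlapped in every case. Psma2 was the lowest, at 10143, 11461 and 17351 in control and 8551, 10118 and 10320 in knockout, with a log2 fold change of -0.39 (SE 0.21; limma adjusted p = 0.386), or -0.16 without control library 3. Psma4 and Psma7 followed at -0.26 each, Psma3 at -0.21 and Psma1 at -0.17. Psma3 turned to 0.01 without that library.

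Psma5 and Psma6 had the fold changes closest to 0 in the ring. Psma5 stood at 1478, 1570 and 2303 in control and at 1599, 1703 and 1732 in knockout, so every knockout value lay above control libraries 1 and 2 and below control library 3. Psma6 stood at 8521, 10966 and 14052 in control and at 8745, 10157 and 10894 in knockout, all inside the control range. The log2 fold changes were -0.06 and -0.15, and without control library 3 they were 0.14 and 0.03. The median of the ring without that library was -0.01, with 4 of 7 negative.

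In the beta ring, the 3 catalytic subunits lay lower and 2 other members did not. Psmb5, the chymotrypsin-like site, stood at 3495, 3622 and 4336 in control and at 2106, 2989 and 3066 in knockout. No knockout value reached a control value, and the gap did not rest on control library 3. The log2 fold change was -0.50 (SE 0.18; unadjusted p = 0.0295, limma adjusted p = 0.371), or 71.3% of the control mean, and -0.41 without control library 3. Without knockout library 1, which had the lowest value, the log2 fold change was -0.33. Psmb5 is among the members with a near-identical pseudogene copy.

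Psmb6, the caspase-like site, stood at 13602, 13900 and 19234 in control and at 10553, 12661 and 13978 in knockout. Psmb7, the trypsin-like site, stood at 16838, 18376 and 23658 in control and at 13483, 16406 and 17328 in knockout. The groups overlapped for both. Their log2 fold changes were -0.32 (SE 0.18) and -0.31 (SE 0.17), with limma adjusted p-values of 0.392 and 0.386.

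Psmb3, a structural subunit, had the lowest fold change of the core at -0.55 (SE 0.26; limma adjusted p = 0.373). It stood at 3311, 3273 and 5502 in control and at 2058, 2911 and 3200 in knockout, with no overlap but with knockout library 3 close to control library 2. It was -0.30 without control library 3, and Psmb5 was then the lowest of the core. Psmb4 had -0.35 with no overlap, and -0.19 without that library.

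Psmb1 and Psmb2, structural subunits as well, were the core members with positive fold changes. Psmb1 stood at 15864, 17250 and 17292 in control and at 15623, 19063 and 20878 in knockout. Psmb2 stood at 8770, 10834 and 14648 in control and at 9980, 12525 and 11777 in knockout. Psmb1 was thus above all controls in knockout libraries 2 and 3 and below them in knockout library 1, while all Psmb2 knockout values lay inside the control range. The log2 fold changes were 0.13 (SE 0.14) and 0.03 (SE 0.20), with limma adjusted p-values of 0.589 and 0.948. The sign for Psmb2 turned to -0.15 without control library 1 and to -0.04 without knockout library 2.

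**Figure D3:**
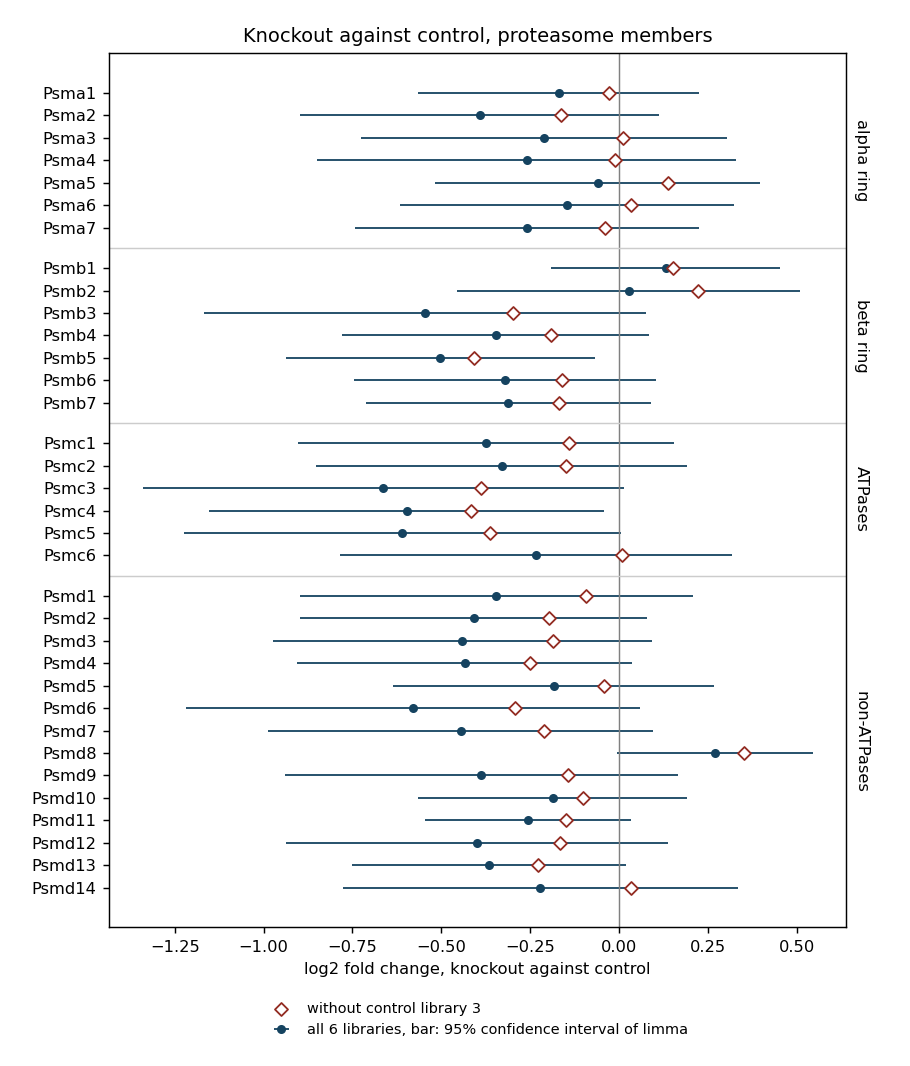
Log2 fold change of knockout against control for each of the 34 members, as filled points with the 95% confidence interval of limma from all 6 libraries, and as open diamonds without control library 3. Below 0 lie 31 of 34 filled points and 26 of 34 diamonds.

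Psmd8, a lid subunit, was the regulatory particle member with a positive fold change. It stood at 20635, 20858 and 24542 in control and at 25824, 25707 and 27900 in knockout. Every knockout value was above every control value. The mean in knockout was 120.3% of that in control, with a log2 fold change of 0.27 (SE 0.12; limma adjusted p = 0.371). Without control library 3 it was 0.35, with an adjusted p of 0.0091 in DESeq2, where 2.62% of 12954 genes were called higher. Limma and edgeR did not call it in the same 5 libraries, with adjusted p-values of 0.241 and 0.244, and each called 0.0334% of all genes there. An alternative chosen after seeing the data thus made Psmd8 the single member that any of the 3 tools called.

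The other 7 lid members had negative fold changes. Psmd6 stood at 6335, 7836 and 12828 in control and at 4813, 6307 and 6276 in knockout, with no overlap, although control library 1 and knockout library 2 differed little. Its log2 fold change was -0.58 (SE 0.27; limma adjusted p = 0.372) and -0.29 without control library 3. Psmd7 stood at 11411, 13248 and 19951 in control and at 8972, 11924 and 11173 in knockout, with overlap and a log2 fold change of -0.45 (SE 0.23; limma adjusted p = 0.377).

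Psmd14, the deubiquitinase that removes ubiquitin chains as the substrate enters, stood at 8001, 10324 and 15461 in control and at 8749, 9574 and 9627 in knockout. All knockout values lay inside the control range. The log2 fold change was -0.22 (SE 0.23; limma adjusted p = 0.598), and 0.03 without control library 3. The remaining lid members Psmd3, Psmd11, Psmd12 and Psmd13 had log2 fold changes of -0.44, -0.26, -0.40 and -0.37.

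The 3 base subunits outside the ATPase ring had negative fold changes. Psmd4, a ubiquitin receptor, stood at 15677, 16046 and 23222 in control and at 11050, 14906 and 14387 in knockout, with no overlap. Its log2 fold change was -0.43 (SE 0.20; limma adjusted p = 0.372), and -0.25 without control library 3. Psmd2 and Psmd1, the large scaffold subunits, had -0.41 and -0.34, the first with no overlap and the second with overlap, and without control library 3 they had -0.20 and -0.09. The assembly chaperones Psmd5, Psmd9 and Psmd10 had -0.18, -0.39 and -0.19, all with overlap.

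The core and regulatory particles were compared within each library, which removes only a shift that all members share equally. The mean log2 level of the core minus that of the regulatory particle was -0.40, -0.44 and -0.51 in control libraries 1, 2 and 3, and -0.33, -0.37 and -0.29 in the knockout libraries. Every knockout value was above every control value. The control mean of this difference was -0.449 ± 0.055 (SD, n = 3). Across control libraries 1, 2 and 3 the difference fell as the mean log2 level of the core rose (12.85, 13.03 and 13.47). The knockout libraries, with core levels of 12.67, 12.96 and 13.01, had no such order. The knockout mean of the difference was -0.329 ± 0.037 (SD, n = 3), higher by 0.12, which is larger than either SD. Control library 1 and knockout library 2 were close, however, at -0.40 and -0.37, and the control libraries alone ran from -0.51 to -0.40. In counts not divided by transcript length, the mean level of the regulatory particle was above that of the core in all 6 libraries. Per kilobase the control medians had the other order, at 9818 for the core and 8326 for the regulatory particle. The excess in counts was smaller in knockout by 0.12 on the log2 scale. It was smaller by 0.09 without control library 3 and by 0.12 without knockout library 1. Since the members were chosen with results known, this is a description and carries no p.

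Of the 4 classes, the ATPases and the alpha ring had fold changes furthest apart. The mean log2 level of the ATPases minus that of the alpha ring was 0.85, 0.91 and 0.95 in control and 0.52, 0.76 and 0.67 in knockout. The groups did not overlap, with means of 0.904 ± 0.047 (SD, n = 3) and 0.65 ± 0.123 (SD, n = 3). Knockout minus control was -0.25 with all libraries and -0.19 without knockout library 1, which had the lowest value. This pair of classes was picked because its fold changes were furthest apart in these same libraries. The choice itself favours a lack of overlap, so the values are a description and not a test. Leaving the 3 assembly chaperones out gave a difference between core and regulatory particle of 0.14.

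**Figure D4:**
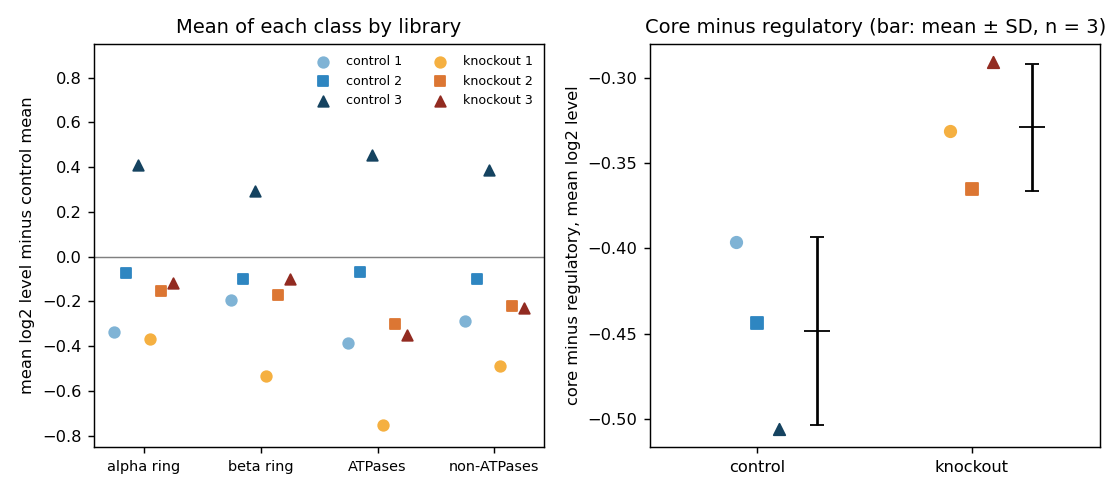
Left, mean log2 level of each class of members in each library relative to the control mean. Right, mean log2 level of the core minus that of the regulatory particle in each library, with mean ± SD of 3 libraries; the control libraries lie between -0.51 and -0.40 and the knockout libraries between -0.37 and -0.29.

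Relative to the mean of the 34 members in the same library, 12 members did not overlap between the groups. This scale was chosen after seeing the data. It moved the median log2 fold change of all genes to 0.33. The 6 that were higher in knockout were Psma1, Psma5, Psma6, Psmb1, Psmb2 and Psmd8, so 5 of 6 were core members. The 6 that were lower were Psmc3, Psmc4, Psmc5, Psmd6, Psmd7 and Psmd9. All were counted in the regulatory particle by symbol, though Psmd9 encodes an assembly chaperone. Of the 34 members, 14 were counted in the core and 20 in the regulatory particle. On this scale 19.6% of all genes were higher and 4.29% lower with no overlap, but the members are balanced around 0 by construction and the background is not.

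By difference of group means, Psmd8 was furthest apart on this scale, at 1.25, 1.06 and 0.82 in control and 1.79, 1.48 and 1.59 in knockout (log2 above the members' mean). Psmb2 stood at 0.01, 0.11 and 0.07 in control and 0.42, 0.44 and 0.34 in knockout, although its own counts overlapped. Psmc4 stood at 0.56, 0.63 and 0.57 in control and at 0.12, 0.45 and 0.32 in knockout. When each library was left out in turn, 13 to 18 members did not overlap, where 27.8% to 56.8% of all genes did not on this scale, most of them higher.

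**Figure D5:**
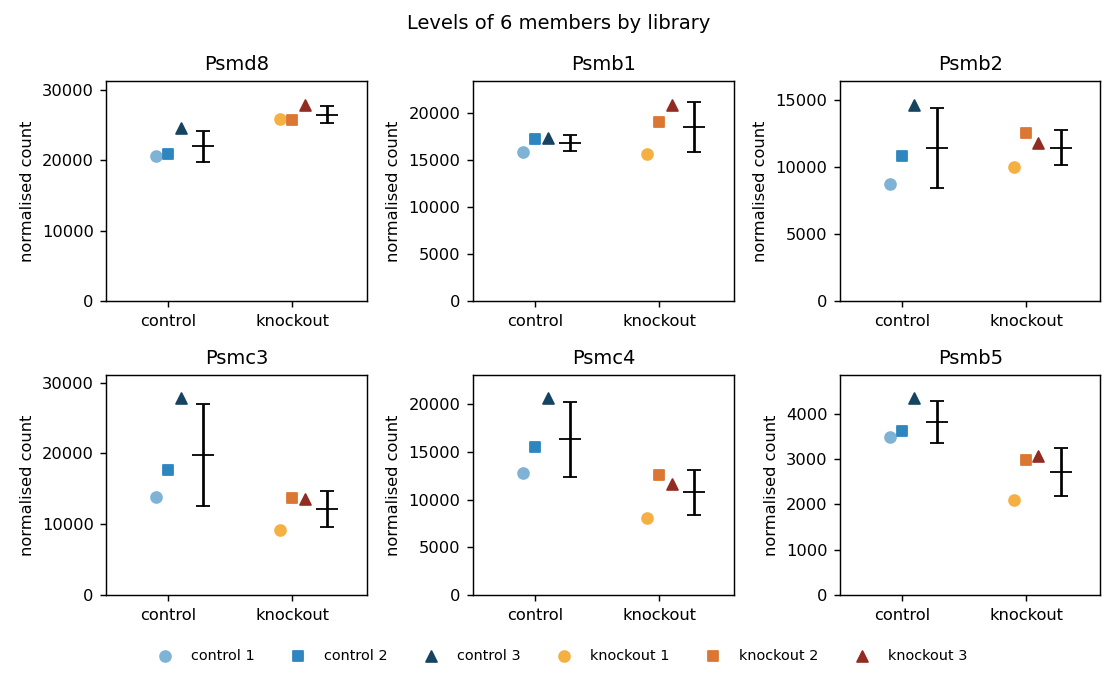
Normalised counts of Psmd8, Psmb1, Psmb2, Psmc3, Psmc4 and Psmb5 in each library, on axes that start at 0, with mean ± SD of 3 libraries per group. Psmd8 lies higher and Psmc3, Psmc4 and Psmb5 lie lower in every knockout library, while Psmb1 and Psmb2 overlap.

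Genes around the complex were described from lists of its regulators, and limma and DESeq2 called none of them in the 6 libraries. The immunoproteasome genes replace the catalytic subunits after interferon. Psmb8 stood at 426.9, 283.3 and 30.7 in control and at 407.6, 1042 and 759.3 in knockout, and Psmb9 at 234.1, 228.4 and 60.2 against 222.3, 421.6 and 371.2. Both were lowest in control library 3, where most constitutive members were highest. Their log2 fold changes were 2.13 and 1.14, with limma adjusted p-values of 0.372 and 0.377, and without control library 3 they were 0.98 and 0.50. Psmb10 stood at 699.1, 809 and 1122 in control and at 509.7, 842.1 and 999.5 in knockout, with overlap.

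Among activators and inhibitors, Psme3, a nuclear activator cap, and Psmf1, a proteasome inhibitor, were lower with no overlap, at log2 fold changes of -0.55 and -0.47, or -0.25 and -0.27 without control library 3. Psme1 and Psme2, the interferon-induced cap, had 0.12 and 0.29 with overlap, and Psme1 turned to -0.02 without control library 3. Of the 5 core assembly chaperones, Pomp, which is needed for beta ring maturation, had 0.02, and Psmg3 had -0.44 with no overlap. Adrm1, a ubiquitin receptor of the base that the symbol pattern does not take, had -0.51 with no overlap, while Sem1, a small lid subunit, had 0.05.

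Of 7 enzymes and factors that bind the proteasome, 6 had negative fold changes, the lowest being Usp14, a deubiquitinase of the cap, at -0.48 with no overlap. The 6 shuttle factors that carry ubiquitinated proteins to the proteasome were all negative, with a median of -0.25 and 4 of 6 lower with no overlap, where 14.4% of all genes were. Ubqln2 stood at 11015, 11342 and 14262 in control and at 9091, 8766 and 8767 in knockout, with a log2 fold change of -0.45 (SE 0.13; limma adjusted p = 0.371). Vcp, the segregase that extracts ubiquitinated proteins, stood at 7696, 9301 and 14266 in control and at 5551, 6916 and 5922 in knockout, a log2 fold change of -0.72. Without control library 3, DESeq2 gave Ubqln2 an adjusted p of 0.00597 and Vcp one of 0.0338, where 5.49% of 12954 genes were called. Limma and edgeR called neither in those 5 libraries, with adjusted p-values of 0.235 and 0.244 for Ubqln2 and 0.252 and 0.254 for Vcp.

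The transcription factor Nfe2l1 stood at 20444, 17518 and 19159 in control and at 17611, 17251 and 17414 in knockout, with overlap and a log2 fold change of -0.13. Nfe2l2 stood at 10459, 11241 and 5044 in control and at 10454, 13606 and 13582 in knockout. Its lowest value was in control library 3, where the members were highest, and its log2 fold change was 0.57 (limma adjusted p = 0.389) with all 6 libraries and 0.20 without that library.

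The lower values were not limited to the proteasome. The 8 subunits of the cytosolic chaperonin, a folding machine that was listed for comparison, were all negative as well, with a median of -0.36, and control library 3 was the highest for all 8. Their median was -0.17 without that library, with 7 of 8 negative, against -0.15 for the proteasome members. Over all genes with a mean of at least 1000 the median was -0.05 with 6 libraries.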

How the data were processed

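Total RNA of 6 fibroblast samples was sequenced from TruSeq v2 libraries, per the labels' protocols. The submitters' processing notes name STAR, DESeq2 and mm10. For the counter, its strand setting, the annotation and the versions, the sources used here name nothing. The authors' deposited signal is a normalised count, that is, reads divided by 1 size factor per library. Whole reads were recovered from 100% of values within 0.001. Unnamed rows have gene numbers and 1.90% to 2.23% of reads, and were tested too.

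Under R 4.3.3, limma 3.58.1 with trend and robust options took log2(value + 1) of 14777 genes kept by filterByExpr with a minimum of 10, two-sided, with Benjamini-Hochberg adjustment over all genes at 0.05. Adding 1 shrinks the change of genes with few reads. Some low genes still had larger log2 fold changes with limma than with DESeq2, such as Psmb8 at 2.13 against 1.57. Others had smaller ones, such as Rps27a at -0.81 against -0.99. EdgeR 4.0.16 and DESeq2 1.42.0 on recovered reads were alternatives. The tests were also run on simulated reads whose changes were larger in size than that of any member. That run does not show how often changes as small as those of the members would be found. Depth is 53253055 reads or more per library, so counting error is small beside the spread between libraries. No library of a group was a copy of another, with a chi-square per degree of freedom of 18.7 or more for each pair.

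The members, lists and alternatives were chosen with earlier results of these data known. Genes named by rule were Zmat3, the 2 highest and 2 lowest fold changes per class, the catalytic and immunoproteasome subunits, Psmd4, Psmd14, the chaperones, and up to 3 genes of largest change per related list. Other members were named after their values were seen. Gene models are those of GENCODE on GRCm38. The deviations of same-numbered libraries from their group means had correlations of 0.26, 0.20 and -0.02, against -0.32 to 0.22 for other pairs. With 3 libraries per group these deviations sum to 0, so they cannot settle whether the numbers pair the libraries. The main fit did not pair them.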

Additional observations from a re-analysis of the deposited data

How the results depend on the processing

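The median log2 fold change of the members was negative under the alternatives of test, scaling, filter, member list and libraries, between -0.48 and -0.14, and the core minus regulatory difference was positive, between 0.09 and 0.16. On the scale relative to the members' mean the median was -0.03, near 0 by construction. The number of genes called over the whole table was 129 with DESeq2 in place of 0 with limma. With 1 library left out it lay between 0 and 711, the highest being DESeq2 without control library 3, with 61 for DESeq2 without knockout library 1 and 5 for limma or edgeR without control library 3. The number of members called was 0 or 1 with 1 library left out. The members with no overlap between groups numbered 12 to 29 when 1 library was left out, where 32.8% to 52.7% of all genes had no overlap. With the replicate number as a block, limma called 0 genes and 0 members, the median stayed at -0.34, and 12 members had an unadjusted p under 0.05 in place of 2, where 16.9% of all genes had one. Knockout library 3 did not correlate best with the control of its own number.

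Signs turned for 6 of 34 members and for some related genes when 1 library was left out. With limma, the log2 fold change lay between -0.403 and 0.0114 for Psma3, -0.328 and 0.0331 for Psma6, -0.182 and 0.138 for Psma5, -0.147 and 0.223 for Psmb2, -0.46 and 0.0087 for Psmc6, -0.391 and 0.0942 for Psmb10, -0.441 and 0.0345 for Psmd14, -0.0686 and 0.447 for Psme1, and -0.0279 and 0.0658 for Pomp. Cct4 lay between -0.351 and 0.118. Without control library 3, DESeq2 gave 0.0199 for Psma6, 0.131 for Psma5, 0.0464 for Psmb10 and 0.0165 for Psmd14, and edgeR gave 0.0295, 0.14, 0.055 and 0.0262. Without knockout library 1, the log2 fold change of Psmb10 from DESeq2 was 0.0747. The cause was not tested. Of the other values of genes named by rule, 840 kept their direction and side of the threshold and 5 passed it in DESeq2 alone.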
